A study of Mus musculus with 66 samples.

Results

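The 10 genes described here, Slc6a13, Itih2, Myoc, Dcn, Ogn, Slc22a6, Slc6a20a, Igf2, Lum and Igfbp2, are genes expressed by the fibroblasts of the meninges, and they are 10 of the 45706 gene identifiers measured in 66 mouse RNA-seq libraries. They were taken from a list of meningeal genes and chosen by their measured levels in these libraries: their joint variation between animals, tissues and Rorb alleles, and the higher Slc6a13 and Itih2 in the brains of 1 mutant line. That line's brain values and the joint variation are therefore given as description, without a test, and the libraries of every other comparison also entered that joint variation. The study compared mice homozygous for 5 spontaneous recessive alleles of Rorb, the gene of the nuclear receptor RORβ, with wild-type mice. C57BL/6J wild types (n = 3, 8.0 weeks of age) served Rorb h1/h1 (C57BL/6J, n = 3, 8.0 weeks; a duplication that includes the first exon of the Rorb1 isoform), Rorb h2/h2 (n = 4, 7.9 to 9.4 weeks) and Rorb h3/h3 (n = 4, 8.0 to 9.6 weeks), both of B6(Cg)-Tyr c-2J/J background with an unknown causal change, and Rorb h4/h4 (B6.129S7-Il1r1 tm1Imx/J, n = 4, 8.4 to 8.6 weeks; a nonsense change). DBA/1J wild types (n = 3, 8.4 to 8.9 weeks) served Rorb h5/h5 (DBA/1J, n = 3, 8.4 to 8.7 weeks; loss of the Rorb1 start codon). Each of these 24 animals gave a brain and a spinal cord. By their labelled ages and identifiers, cortex, hippocampus and cerebellum came from other animals of 7.0 weeks, 3 DBA/1J and 3 Rorb h5/h5. The paper's methods instead describe sagittally cut Rorb h5/h5 brains, with 1 side frozen and the other dissected into these regions. The alleles are written h1 to h5 from here on. Strain background differs between the controls and the h2, h3 and h4 mice. The h4 allele arose on a strain with an Il1r1 mutation, and whether the h4 mice carry it was not checked here. The h2, h3 and h4 lines share no animal identifier series with the controls, so allele, background and series cannot be told apart there. The h5 and DBA/1J animals come in part from the same series. The C57BL/6J and DBA/1J wild types share none.

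The meninges are the membranes that wrap the brain and spinal cord, and their fibroblasts build the collagen and proteoglycan matrix of the pia, arachnoid and dura. These fibroblasts also carry transporters that clear transmitters, amino acids and organic anions at the border with the cerebrospinal fluid, and they secrete insulin-like growth factor 2 (IGF2) and one of its binding proteins. The choroid plexus epithelium makes IGF2 and IGFBP2 as well, and MYOC, a secreted olfactomedin protein best known from the eye, is also made by astrocytes at the surface of the brain and cord. In bulk tissue such as this, fewer cells of a type and less RNA per cell cannot be told apart.

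In GRCm38.p6 the members are protein-coding genes on 8 chromosomes. Slc6a13 (chr6:121300288-121337721) encodes a transporter of GABA, taurine and betaine and lies 4.85 kb from its relative Slc6a12. Slc22a6 (chr19:8617996-8628299) encodes the organic anion transporter OAT1 and lies 6.16 kb from Slc22a8. Slc6a20a (chr9:123636907-123678832) encodes a proline and imino acid transporter and lies 4.37 kb from its near copy Slc6a20b; 98.5% of its deposited counts were not whole numbers, so reads were shared between genes and its values are uncertain, while the other members had whole counts throughout. Dcn (chr10:97479500-97518163), Lum (chr10:97565501-97572703) and Ogn (chr13:49608015-49624501) encode decorin, lumican and osteoglycin, small leucine-rich proteoglycans of collagen matrix. Itih2 (chr2:10094591-10130683) encodes a heavy chain that is bound to hyaluronan, and Myoc (chr1:162639150-162649694) encodes myocilin. Igf2 (chr7:142650768-142666816) and Igfbp2 (chr1:72824480-72852474) complete the list. Ogn lies within Cenpp, and Igf2 and Myoc overlap Igf2os and Myocos; these overlapping genes reached at most 1.06, 0.893 and 0.0552 CPM (reads scaled to library size), and strand use in counting is not given in the sources used here.

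The promoters of the 3 members whose brain levels the allele comparisons turn on are printed from RefSeq (GRCm38.p6), 250 bases before to 50 bases after the annotated start, 5′ to 3′ on the gene's strand, with the letters matching a searched motif in capitals. Slc6a13 is chr6:121300038-121300337 (+ strand), Itih2 is chr2:10130634-10130933 (- strand) and Myoc is chr1:162638900-162639199 (+ strand).
Slc6a13: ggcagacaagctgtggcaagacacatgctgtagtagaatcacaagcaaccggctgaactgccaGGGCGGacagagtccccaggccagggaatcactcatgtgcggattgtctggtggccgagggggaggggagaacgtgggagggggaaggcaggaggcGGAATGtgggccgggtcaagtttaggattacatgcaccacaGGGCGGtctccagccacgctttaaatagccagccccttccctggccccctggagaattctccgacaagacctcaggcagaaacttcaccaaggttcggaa
Itih2: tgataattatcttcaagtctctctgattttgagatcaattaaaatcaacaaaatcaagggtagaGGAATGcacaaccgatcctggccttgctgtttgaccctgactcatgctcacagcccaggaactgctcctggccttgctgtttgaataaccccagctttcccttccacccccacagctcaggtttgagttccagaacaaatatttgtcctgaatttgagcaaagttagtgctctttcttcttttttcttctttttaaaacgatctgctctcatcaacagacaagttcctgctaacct
Myoc: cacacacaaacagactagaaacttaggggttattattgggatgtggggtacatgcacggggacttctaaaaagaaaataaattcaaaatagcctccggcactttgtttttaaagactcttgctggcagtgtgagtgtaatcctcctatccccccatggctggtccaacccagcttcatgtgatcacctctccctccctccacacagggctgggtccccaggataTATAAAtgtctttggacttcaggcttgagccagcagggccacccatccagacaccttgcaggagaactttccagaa
In Slc6a13 the capitals mark GGGCGG, known as the GC box, and GGAATG, an element bound by TEAD factors. In Itih2 they mark the TEAD element. In Myoc they mark TATAAA, the TATA box, with its first base at -26 from the start. The search covered both strands of 14 promoters of 8 members; Dcn and Lum are named only. AGGTCA, the half-site to which ROR receptors bind, was in 2 of the 14 (1 start of Igf2 and a later start of Slc6a13), against 16.3% of 32851 promoters of the same length; it was in none of the 3 printed here. GGAATG was in 7 of 14 against 14.7%. These 7 belonged to Igf2, Itih2, Ogn, Slc22a6 and Slc6a13, with more than 1 of them a start of Igf2, so they are not 7 separate genes. GGGCGG was in 5 against 35.7%, TATAAA in 2 against 13.6%, and TGTTTAC (a forkhead element) in 0 against 3.65%. No matches to different motifs overlapped. The GC content was 59.0% for Slc6a13, 42.3% for Itih2 and 48.7% for Myoc, against a median of 52.7% over all promoters.

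Libraries held 32889755 to 59120536 assigned reads (median 42391893). Rorb itself is given as a partial check of the brain labels. It was 51.4 to 61.7 CPM in C57BL/6J brain, 34.9 to 37.4 in h1, 27.5 to 31.2 in h2 and 51 to 55.2 in h3. In h4 it was 10.5 to 14.9, in DBA/1J 51 to 66.9 and in h5 74.2 to 81.4. The ranges of C57BL/6J, h3 and DBA/1J overlapped, so Rorb cannot tell these groups apart. The labelled sex did not match the sex-linked transcripts in 1 of 30 animals, h5 replicate 3 of the dissected regions (all 3 of its libraries). Spinal cord h5 replicate 3 stood apart from the other 23 spinal cords and is included unless its omission is stated. Brain h2 replicate 1 held 71.9 CPM of prolactin (Prl) and 21.2 CPM of growth hormone (Gh), transcripts of the pituitary, and skeletal muscle genes summed to 43.3 CPM in brain h2 replicate 2 against 2.23 to 4.05 in the other 23 brains.

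Levels compared between genes are per length, in TPM. In brain, Igf2 (median 67.5 TPM over 24 libraries) and Igfbp2 (47.7) were the highest members, followed by Dcn (24), Myoc (17.9), Slc6a20a (13.8), Slc6a13 (9.21), Ogn (7.81), Itih2 (4.46), Slc22a6 (2.73) and Lum (2.56). In spinal cord the order changed: Myoc came first at a median of 50.3 TPM over 24 libraries, with group medians of 45.8 to 81.2 in the C57BL/6J-type lines but 0.44 in DBA/1J and 2.01 in h5, ahead of Igfbp2 (18.6), Dcn (10.5) and Igf2 (9.10), and Slc22a6 was listed at a median of 0. Hippocampus, from DBA/1J background mice only, held the highest medians of Igf2 (157.7 TPM), Igfbp2 (89.4), Dcn (71.1) and Lum (6.96), and cerebellum those of Itih2 (5.61), Slc6a20a (17.4) and Ogn (8.49). Between tissues next to each other in the order of a gene's medians the ranges overlapped for all members, except that Dcn in hippocampus lay above all cerebella and Slc22a6 in hippocampus above all spinal cords. Without spinal cord h5 replicate 3, spinal cord also lay below the tissue next above it with no overlap for Slc6a13, Itih2, Ogn, Slc6a20a, Igf2, Lum and Igfbp2.

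**Figure D1:**
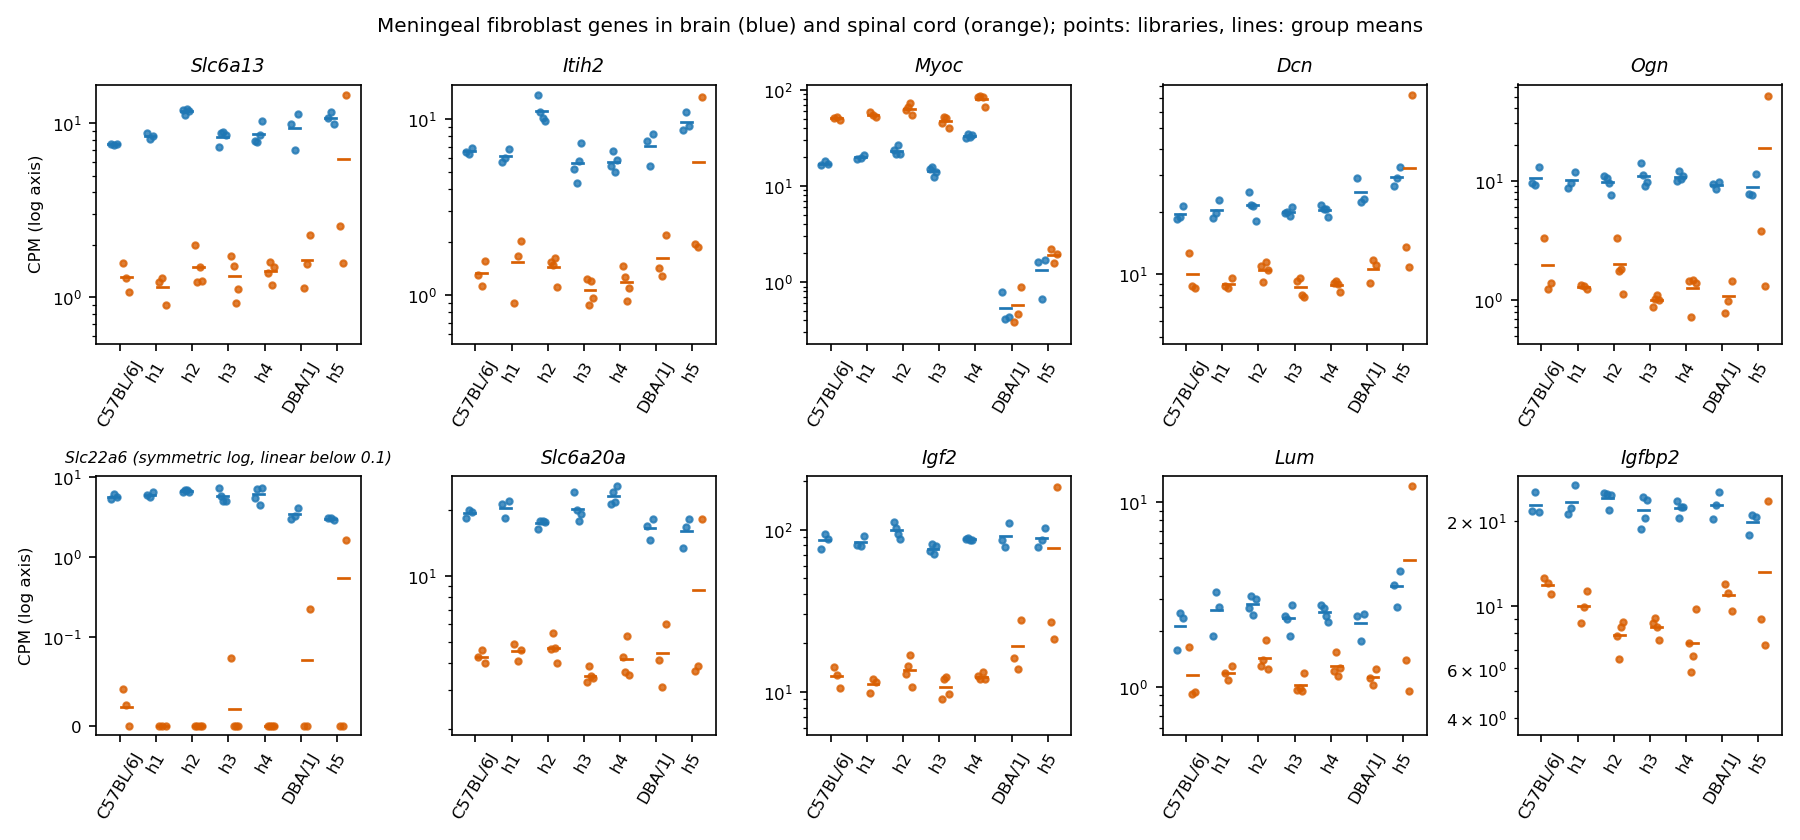
CPM of each member in brain (blue) and spinal cord (orange) by genotype, on log axes (symmetric log for Slc22a6), with points for libraries and lines for group means. Myoc is higher in spinal cord in the C57BL/6J-type lines (39.9 to 86.4 CPM against 12.5 to 34.2 in brain). It is low in both tissues of DBA/1J and h5. The group means of the other members are lower in spinal cord in all lines, except Dcn, Ogn and Lum in h5, where 1 cord is high. For Lum single libraries of the tissues overlap (C57BL/6J cord replicate 1 at 1.64 CPM, C57BL/6J brain replicate 1 at 1.59).

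Spinal cord was compared with brain in the same 24 animals by edgeR's quasi-likelihood test with genotype as a covariate and Benjamini-Hochberg adjustment over all genes. Of all genes 40.2% were called lower and 39.5% higher, so a call by itself was common, and the members are read by their size: 9 of 10 were called lower and Myoc higher, with a median log2 difference of -2.08 against -0.01 over all genes. DESeq2 called 5 of the 10 (Slc6a13, Ogn, Lum and Igfbp2 lower, Myoc higher) and gave the other 5 no adjusted p. The organic anion transporter Slc22a6 had the largest difference. Its brain values ran from 2.86 through a median of 5.55 to 7.22 CPM, while 19 of 24 spinal cords had no count, the others reached at most 0.224 CPM, and h5 replicate 3 had 1.64. The fitted log2 difference of -5.96 (-8.11 without that animal) rests on these few reads.

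The other transporters were lower in spinal cord as well. Slc6a13 went from 6.97, 8.78 and 12.1 CPM in brain (lowest, median, highest) to 0.903, 1.44 and 14.5 in spinal cord, a log2 difference of -2.41, or -2.68 without h5 replicate 3. Slc6a20a differed by -2.04 (-2.20 without that animal) and the adjacent betaine and GABA transporter gene Slc6a12 by -2.89. Of 10 related solute carriers, 8 were lower, among them the meningeal sulfate transporter Slc13a4 (-4.50) and the organic cation exporter Slc47a1 (-4.81). The other two, Slc6a9 and Slc6a11, transporters of glycine and GABA, were higher.

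Among the matrix genes the differences were unequal. Ogn fell from a brain median of 9.74 to 1.34 CPM (log2 difference -2.31), whereas Dcn (-0.97) and Lum (-0.82) differed less. Without h5 replicate 3 these differences were -2.74, -1.15 and -1.07, that of Itih2 was -2.38, that of Igf2 -2.67 and that of Igfbp2 -1.33. For Dcn the tissues overlapped only through h5 replicate 3 (brain 18 to 32.7 CPM, the other spinal cords 7.78 to 13.5). The related proteoglycan genes Omd (-2.45), Fmod (-1.27) and Epyc (-4.60) were lower in spinal cord and Prelp and Ecm2 higher. Itih2 differed by -2.12, opposite to the other tested genes of its family that were called: Itih3 (1.68), Itih5 (0.28) and the hyaluronan-modifying Tnfaip6 (1.29) were all higher in spinal cord. In the IGF system, Igf2 fell from a brain median of 86.1 to 12.6 CPM (-2.43) and Igfbp2 from 22.2 to 8.88 (-1.24). Of 11 tested genes of that system 9 were lower, with Igfbp6 at -3.68, and Igf2bp2 was higher.

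Myoc went the other way, from a brain median of 17.5 to a spinal cord median of 51.8 CPM (log2 difference 1.41, edgeR adjusted p = 5.8e-25; 1.43 without h5 replicate 3). In C57BL/6J wild types alone the log2 difference was 1.55 (edgeR adjusted p = 2.7e-10), and in DBA/1J wild types alone 0.08 (edgeR adjusted p = 0.887); the difference between the strains in this respect was not tested. Of 30 other meningeal and perivascular fibroblast genes, 23 were lower in spinal cord and 2, Apod and S100a6, higher, with a median log2 difference of -1.06; the summed level of this list was 567 to 794 CPM in brain (median 737) and 650 to 1351 in spinal cord (median 729). The choroid plexus genes, 11 of 12 of them lower, and the 4 surface astrocyte genes (Gfap, Id3, Agt and Aqp4), all higher, moved alongside. Gfap and Aqp4 are in the general astrocyte list too, so the surface list does not single out astrocytes beside the pia. Gfap alone had a median of 205 CPM in brain and 1498 in the spinal cords other than h5 replicate 3. The summed levels were 253 to 681 CPM in brain and 30.6 to 37.7 in spinal cord for choroid plexus, and 443 to 654 and 2160 to 2789 CPM for surface astrocytes; their part in the members' differences was not tested. Spinal cords were pushed out of the column with fluid and brains were halved and frozen, so tissue and method of removal cannot be told apart.

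Within the brain, the dissected regions of 6 animals (3 DBA/1J, 3 h5) were compared in pairs, again with genotype as a covariate. Hippocampus exceeded cortex for 6 members by edgeR's test, where 19.7% of all genes were called higher. Dcn, whose cortex values were 9.73, 10.8 and 14.1 CPM in DBA/1J and 19.8, 17.5 and 12.7 in h5, stood at 40.7, 59.9 and 69.5 in DBA/1J hippocampus and 56.6, 97.4 and 57.6 in h5 hippocampus. Every hippocampus lay above every cortex, and the log2 difference was 2.18. Myoc (1.78), Igf2 (1.68), Lum (1.27), Igfbp2 (0.91) and Ogn (0.35) were also called, while the transporters Slc6a13, Slc22a6 and Slc6a20a were not. The smaller differences were less steady: over 11 alternatives Igfbp2 was called in 7 (edgeR adjusted p up to 0.0993, without the call in DBA/1J animals alone or without DBA/1J replicate 1 or 3 or h5 replicate 1) and Ogn in 9 (adjusted p up to 0.0816, without the call when DBA/1J replicate 2 or 3 was left out). Leaving out 1 animal at a time gave 4 to 6 members called between hippocampus and cortex, 5 to 7 between cerebellum and cortex and 5 to 8 between hippocampus and cerebellum. Without h5 replicate 3, the animal whose labelled sex did not match, 6 members were called between hippocampus and cortex, 6 between cerebellum and cortex and 5 between hippocampus and cerebellum.

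Cerebellum exceeded cortex for 7 members, Igf2 (log2 difference 1.13), Lum (0.96), Dcn (0.87), Slc6a13 (0.41), Itih2 (0.37), Slc6a20a (0.32) and Ogn (0.32), where 36.8% of all genes were called higher. Over 11 alternatives Itih2 was called in 7 (log2 difference 0.26 to 0.75, edgeR adjusted p up to 0.139), losing the call without any one of the 3 DBA/1J animals or h5 replicate 3. Ogn lost it only without DBA/1J replicate 1 and Slc6a13 only in DBA/1J animals alone. Hippocampus against cerebellum divided the list, with 35.9% of genes called higher and as many lower: Myoc (1.59), Dcn (1.31) and Igf2 (0.55) were higher in hippocampus and Itih2 (-0.61), Slc6a13 (-0.44) and Slc6a20a (-0.27) lower. Igf2 (edgeR adjusted p = 0.0458) was called in 4 of 11 alternatives, with log2 differences of 0.36 to 0.74 and adjusted p up to 0.226. With the animal as a block its log2 difference was 0.51 (edgeR adjusted p = 0.0982), and it also lost the call with DESeq2, in DBA/1J animals alone and without DBA/1J replicate 1 or 3 or h5 replicate 1 or 3. Slc6a13 and Slc6a20a lost theirs only in DBA/1J animals alone. The choroid plexus genes also differed between these regions, with summed levels from 24.7 to 523 CPM (median 41.5) in cortex, 160 to 3570 (median 2681) in hippocampus and 17.6 to 1889 (median 1210) in cerebellum. Over the 18 region libraries, centred on tissue and genotype, that sum had a correlation of 0.797 with Igfbp2 and 0.722 with Igf2, and of -0.387 with Itih2 and -0.307 with Dcn (Pearson's r of log2 CPM; the libraries share animals and dissection). In hippocampus h5 replicate 2 the choroid plexus transcript Ttr was at its lowest hippocampal value, 106 CPM, together with Igf2 (65.7) and Igfbp2 (11.5), whereas Dcn was at its highest (97.4). The part of choroid plexus in the regional levels was not tested.

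**Figure D2:**
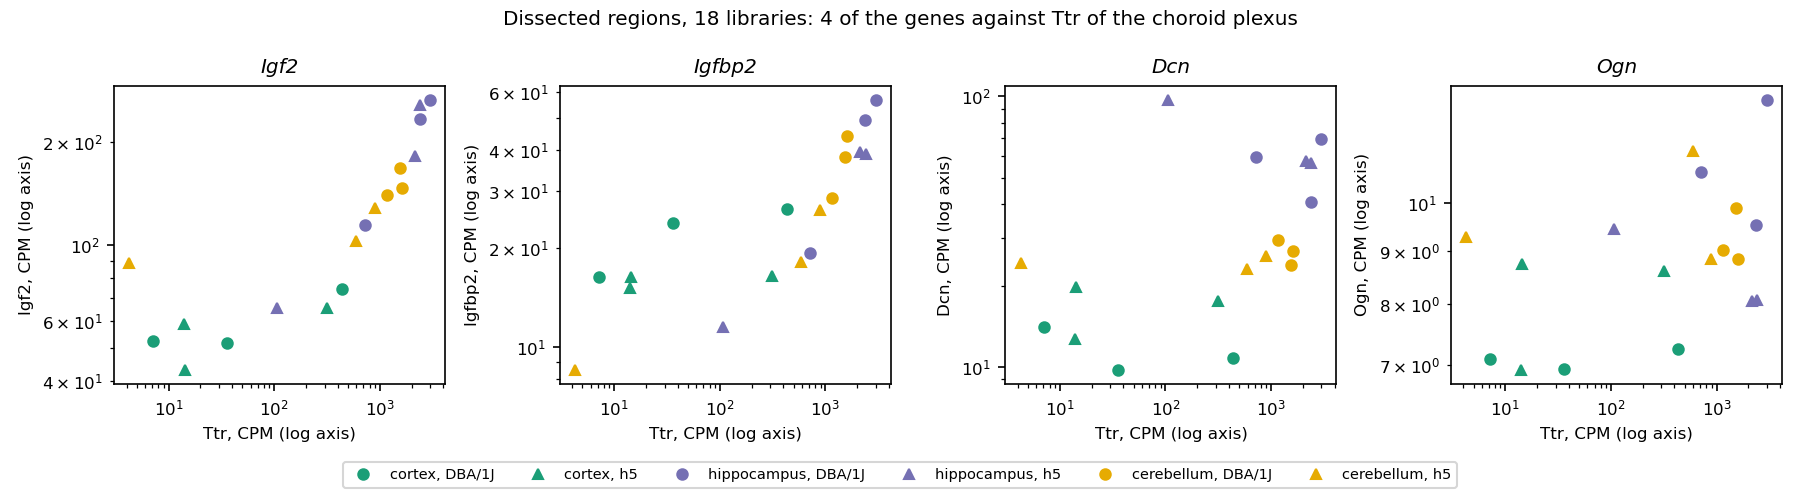
Igf2, Igfbp2, Dcn and Ogn against the choroid plexus transcript Ttr in the 18 libraries of cortex, hippocampus and cerebellum, both in CPM on log axes, with circles for DBA/1J and triangles for h5. Libraries with more Ttr had more Igf2 and Igfbp2, while Dcn separated hippocampus (40.7 to 97.4 CPM) from the other regions at low and high Ttr alike.

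The spinal cord of h5 replicate 3 held 9 of the 10 members above the highest of the other 23 spinal cords, where 7.57% of all genes passing the count filter did so. Igf2 was 184 CPM in that library and 9.02 to 27.7 in the others, and Dcn was 72.5 against 7.78 to 13.5. Ogn was 51.3 against 0.726 to 3.76, or 38.8 times the median of the others, the largest ratio among the members with a median above 0. Slc6a13 was 14.5 against at most 2.56, Itih2 13.4 against at most 2.20 and Lum 12.2 against at most 1.80, each between 10.2 and 10.6 times the median. Slc6a20a (18.2 CPM, 4.45 times) and Igfbp2 (23.4 CPM, 2.67 times) were raised less. Myoc, at 1.96 CPM, lay within the 0.383 to 2.23 of the other DBA-background spinal cords.

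Against brain the members of this library were uneven. Slc6a13, Ogn, Dcn, Igf2 and Lum in it exceeded every one of the 24 brains, in which Slc6a13 was 6.97 to 12.1, Ogn 7.54 to 14.0, Dcn 18 to 32.7, Igf2 70.9 to 111 and Lum 1.59 to 4.25 CPM, whereas Slc22a6, at 1.64 CPM, was below every brain. Itih2 (13.4 CPM), Slc6a20a (18.2), Igfbp2 (23.4) and Myoc (1.96) lay within the range of the brains. Other markers moved with the members. Of the 30 other meningeal genes 29 were above all other spinal cords, their sum being 1351 CPM against 650 to 867; Col1a1 was 87.0 CPM and the sulfate transporter Slc13a4 15.7. The 3 Schwann cell genes Prx, Mlip and Dhh were higher too, with a sum of 89.0 CPM against 1.35 to 9.05. Mural cell genes summed to 382 CPM against 239 to 305, with 5 of 8 above all other cords, and endothelial genes to 310.4 against 261 to 299, with 3 of 6. The border macrophage genes Mrc1, Cd163 and Lyve1 were above all other cords as well, while the sum of their list, 75 CPM, lay within the 55.4 to 83.6 of the others. Choroid plexus genes summed to 36.6 CPM against 30.6 to 37.7, with Ttr at 0.0225 and 4 of 12 (Kl, Aqp1, Kcnj13 and Sostdc1) above all other cords. Oligodendrocyte genes summed to 22900 CPM against 14950 to 22630, with 1 of 4, Mbp, above all other cords, and astrocyte genes to 6127 against 5721 to 6703. The part of these cells in the members' levels was not tested.

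**Figure D3:**
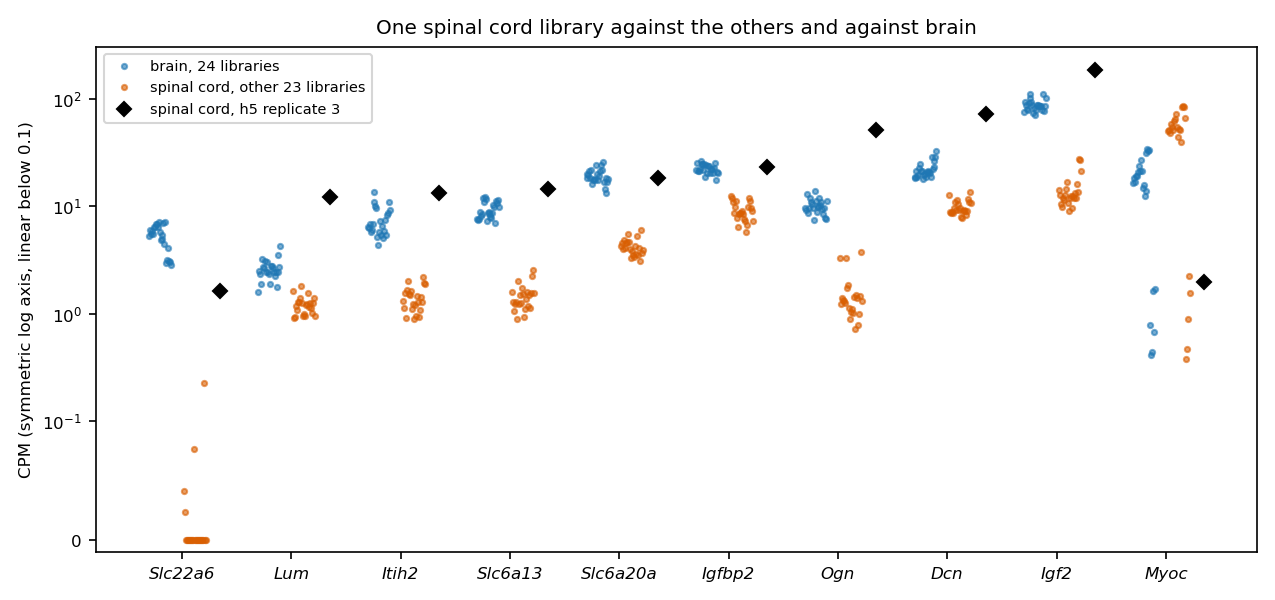
CPM of the members in spinal cord h5 replicate 3 (black diamond), the other 23 spinal cords (orange) and the 24 brains (blue), on a symmetric log axis. The diamond lies above all other spinal cords for 9 of 10 members, with Ogn at 51.3 CPM, and not for Myoc.

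Among the other 23 spinal cords, Ogn was highest in h5 replicate 1 (3.76 CPM), C57BL/6J replicate 1 (3.33 CPM) and h2 replicate 1 (3.3 CPM), while the remaining 20 ranged from 0.726 to 1.85. The summed Schwann cell genes were 9.05, 6.37 and 6.15 CPM in these 3 libraries and 1.35 to 3.07 in the 20. Over the 23 libraries Ogn correlated with the Schwann cell list at r = 0.842, given as a description over libraries that share their groups, and Dcn did at 0.569 and Igf2 at 0.278; the part of Schwann cells in the level of Ogn was not tested.

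The comparison of h5 with DBA/1J spinal cord was made with and without this library. With it, all 9 tested members were above 0 against DBA/1J, with a median log2 difference of 1.81 against 0.00 over all genes, and edgeR called none (0.00581% of genes were called); 7 members had an unadjusted p under 0.05, as had 1532 of 17210 genes, and DESeq2 called 1 member, Myoc, and 94 genes. Without h5 replicate 3 the log2 differences were 0.33 for Slc6a13, 0.22 for Itih2, 0.20 for Dcn, 0.33 for Igf2, 0.05 for Lum, -0.23 for Slc6a20a and -0.42 for Igfbp2, and again none was called. Ogn was 3.76 and 1.32 CPM in the remaining h5 cords against 0.789, 0.992 and 1.46 in DBA/1J, a log2 difference of 1.23 (edgeR adjusted p = 0.358). The first of these cords, replicate 1, is also the one of the 23 with the highest sum of Schwann cell genes.

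Joint variation was described by Pearson's r of log2 CPM centred on each tissue and genotype, over 45 pairs of members. The libraries share animals, dissection and depth, so r carries no p here. Over all 66 libraries the median r was 0.708 and 29 pairs exceeded 0.5. Leaving out spinal cord h5 replicate 3 took the median to 0.218 over 65 libraries, with 4 pairs above 0.5 and a range from -0.287 to 0.690. In spinal cord alone the median went from 0.837 over 24 libraries to 0.309 over 23. In brain it was 0.199 over 24 libraries and in the dissected regions 0.0608 over 18. These low medians also moved with 1 library: without the one farthest from its group mean, DBA/1J replicate 2 in brain and cortex h5 replicate 2 in the regions, they were 0.107 and -0.0594.

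Within single tissues some pairs were closer than the rest. In brain the closest pairs were Slc22a6 with Slc6a20a (r = 0.635), both transporters, Dcn with Ogn (0.620), both matrix proteoglycans, and Igf2 with Igfbp2 (0.615), a ligand and its binding protein, and Myoc with Igfbp2 was the most opposed (-0.281). Slc22a6 with Slc6a20a had r = 0.862 over all 66 libraries and 0.526 over the 65 without spinal cord h5 replicate 3. In the dissected regions Igf2 and Igfbp2 had r = 0.859 and Slc6a13 and Itih2 0.775, while Itih2 and Igf2 had r = -0.726. Brain and spinal cord of the same animal, centred on genotype, were compared over 24 animals. The correlation between them was 0.545 for Igf2 (0.444 without h5 replicate 3), 0.418 for Ogn (0.212), 0.410 for Slc6a20a (0.279) and -0.181 for Slc6a13 (-0.0885).

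**Figure D4:**
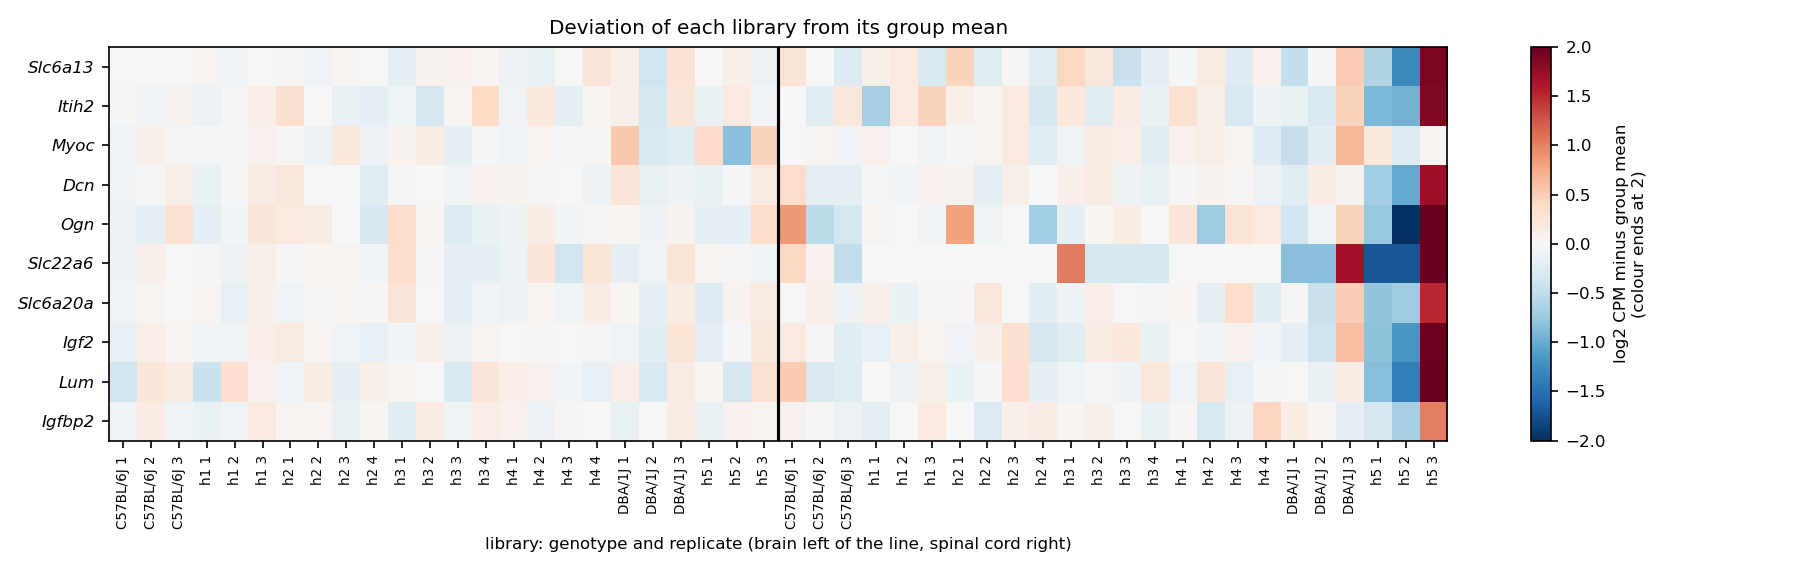
Deviation of each brain (left) and spinal cord (right) library from the mean of its group, in log2 CPM, by colour, which ends at 2 in either direction. Spinal cord h5 replicate 3 is above its group for the members other than Myoc, which leaves the 2 other h5 cords below the group mean.

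The genes that followed the mean of the members most closely over 66 libraries were Cp (r = 0.888), Igfbp3 (0.873), Aldh1a2 (0.868), Col3a1 (0.868), Igf1 (0.867), Islr (0.863), Fmod (0.860), Col1a2 (0.854), Serping1 (0.851) and Moxd1 (0.842). Without spinal cord h5 replicate 3 the nearest genes included Col3a1 (0.637), Glod4 (0.636), Tgfbr1 (0.611) and Cd68 (0.608). Single members differed in their nearest genes over the 65 libraries. Genes close to Ogn included the Schwann cell genes Cldn19 (0.667) and Prx (0.637), and Igfbp2 was closest to Myo7a (0.863), Enpp2 (0.858) and Ace (0.856). Igf2 was closest to Sulf1 (0.833), Pon3 (0.812) and Ace (0.811), and Slc6a13 to the retinoic acid synthesis gene Aldh1a2 (0.604).

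In h2 brain, Slc6a13 was 11.8, 11.1, 12.1 and 11.8 CPM against 7.63, 7.51 and 7.56 in C57BL/6J. The groups were well apart, with a log2 difference of 0.63. Itih2 was 13.7, 11, 10.1 and 9.73 CPM against 6.48, 6.31 and 6.90, a log2 difference of 0.77. These values chose the members and carry no test, and nothing is read from the 0.136% of genes called in this contrast. The h2 brains came from animals of 2 ages: Slc6a13 averaged 11.5 CPM in the pair of 7.9 weeks and 11.9 in the pair of 9.4 weeks, and Itih2 12.4 and 9.92. The highest Itih2 value, 13.7 CPM, was in the brain with pituitary transcripts, and the brain with skeletal muscle transcripts held 11 CPM of Itih2 and 11.1 of Slc6a13.

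The other members in h2 brain, in the same contrast, were at log2 0.45 (Myoc), 0.38 (Lum), 0.24 (Slc22a6), 0.21 (Igf2), 0.14 (Dcn), 0.08 (Igfbp2), -0.13 (Ogn) and -0.15 (Slc6a20a). Every h2 brain was above every control for Slc6a13, Itih2, Myoc and Slc22a6, as for 3.37% of all genes, and below for Slc6a20a, as for 4.17%; nothing is read from these shares either. The 30 other meningeal genes summed to 751 to 789 CPM in h2 and 719 to 794 in C57BL/6J, with 24 above 0 and a median log2 difference of 0.21; Aldh1a2, a marker of arachnoid and pial fibroblasts, was at 0.64. Choroid plexus genes summed to 253 to 466 CPM in h2 and 406 to 577 in C57BL/6J, and the part of these cells was not tested.

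The other lines are given beside h2 without a test of the difference between lines, and their 3 C57BL/6J controls are the brains of the h2 difference that chose Slc6a13 and Itih2, so that these values are not independent of the choice. Slc6a13 in brain was 8.82, 8.15 and 8.48 CPM in h1, 7.31, 8.75, 8.87 and 8.56 in h3, and 7.93, 7.77, 8.60 and 10.2 in h4, and edgeR called none of these differences. Every h1 and every h4 brain was above all 3 controls for Slc6a13, as for 4.19% of genes in h1 and 4.90% in h4 (log2 differences 0.18 and 0.20). Itih2 in brain was 5.71, 6.06 and 6.80 CPM in h1, 5.21, 4.33, 5.76 and 7.35 in h3, and 5.43, 6.60, 5.03 and 5.89 in h4. On the DBA/1J background Slc6a13 ranged from 6.97 to 11.3 CPM in wild types and from 9.90 to 11.6 in h5, both reaching the lowest h2 value. In h2 spinal cord Slc6a13 differed by 0.18 (edgeR adjusted p = 0.766) and Itih2 by 0.11 (edgeR adjusted p = 0.855).

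Myoc was called in more comparisons of a mutant with its wild type than any other member. In brain it was 16.3, 18.2 and 16.8 CPM in C57BL/6J and 31.5, 34.2, 32.6 and 33.6 in h4. The groups did not overlap, as for 4.90% of all genes in that direction, and the log2 difference was 0.96 (SE 0.0653, edgeR adjusted p = 5.1e-05); it was called in 13 of 13 alternative fits. In h4 brain Myoc was the only member called by edgeR, against a background of 0.703% of genes; DESeq2 also called Slc6a20a, which was 21.3, 24.1, 21.8 and 25.8 CPM in h4 against 18.4, 20.1 and 19.5 (log2 difference 0.27). In h4 spinal cord Myoc was 84.4, 86.4, 83.4 and 66.9 CPM against 50.5, 51.9 and 48.3 in C57BL/6J, without overlap (6.14% of all genes), a log2 difference of 0.67 (SE 0.0698, edgeR adjusted p = 2.4e-04) that 13 of 13 alternatives called. The h4 difference was thus seen in both tissues of the same animals; the difference between tissues in its size was -0.29 (edgeR adjusted p = 0.312).

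The remaining C57BL/6J-type lines spread around the control. In h2 brain Myoc was 23.5, 21.4, 26.9 and 21.4 CPM, given without a test. In h2 spinal cord it was 62.0, 65.6, 72.4 and 54.7 CPM, with a log2 difference of 0.34 (edgeR adjusted p = 0.0131). That call was lost in 2 of 13 alternatives, with an adjusted p of 0.127 in one fit of all spinal cords and 0.0812 without C57BL/6J replicate 1. In h1 Myoc was 19.2, 19.4 and 21.0 CPM in brain (log2 difference 0.23, edgeR adjusted p = 0.998) and 58.3, 55.1 and 51.7 in spinal cord (0.14, edgeR adjusted p = 0.309). In h3 it was 15, 15.8, 12.5 and 14.0 in brain (-0.26, edgeR adjusted p = 0.347) and 44.6, 52.2, 51 and 39.9 in spinal cord (-0.10, edgeR adjusted p = 0.656). The h1 to h4 comparisons share the 3 control animals.

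The difference in Myoc between the wild-type strains was far larger than that between any mutant line and its wild type. These wild types also differed in age (8.0 weeks in C57BL/6J, 8.4 to 8.9 in DBA/1J) and shared no animal series. Strain, age and series cannot be told apart here. Reads of both strains were aligned to GRCm38, and the part of this in the difference was not tested. DBA/1J brain held 0.782, 0.417 and 0.436 CPM, a log2 difference from C57BL/6J of -4.94 (edgeR adjusted p = 1.4e-07; 11.2% of genes called). DBA/1J spinal cord held 0.383, 0.467 and 0.898 CPM, a difference of -6.40 (edgeR adjusted p = 6.9e-12; 21.3% of genes called). On that low level h5 was above DBA/1J in all 5 tissues by the fitted value, and edgeR called 1 of them. In hippocampus Myoc was 4.87, 5.10 and 4.77 CPM in h5 against 1.5, 1.34 and 1.21 (log2 difference 1.87, SE 0.151, edgeR adjusted p = 0.0159; 0.0118% of genes called), and 8 of 13 alternatives called it, with an adjusted p of up to 0.188. It was not called without DBA/1J replicate 2 or 3, h5 replicate 1 or 3, or with the replicate number as a block (0.0771).

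In cortex Myoc was 1.06, 1.52 and 1.43 CPM in h5 against 0.5, 0.467 and 0.292 in DBA/1J, without overlap (5.55% of all genes; log2 difference 1.66, edgeR adjusted p = 0.388). In spinal cord it was 2.23, 1.58 and 1.96 against 0.383, 0.467 and 0.898, again without overlap (5.30% of all genes; 1.72, edgeR adjusted p = 0.249). In brain the h5 values of 1.61, 0.671 and 1.72 CPM overlapped those of DBA/1J (1.29, edgeR adjusted p = 0.660). In cerebellum 1.5, 1.41 and 0.867 overlapped 0.461, 0.880 and 0.495 (1.02, edgeR adjusted p = 0.834). Surface astrocyte genes summed to 574 to 590 CPM in h5 hippocampus and 487 to 500 in DBA/1J, and to 476 to 612 in h4 brain and 517 to 604 in C57BL/6J. In the other 4 tissues the h5 sum was also above every DBA/1J library: 544.5 to 654 against 443 to 524 CPM in brain, 312 to 413 against 238 to 275 in cortex, 634 to 665.5 against 601 to 617 in cerebellum and 2515 to 2547 against 2179 to 2506 in spinal cord. This list shares Gfap and Aqp4 with the general astrocyte list and does not single out surface astrocytes. The part of astrocytes in the Myoc levels was not tested.

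**Figure D5:**
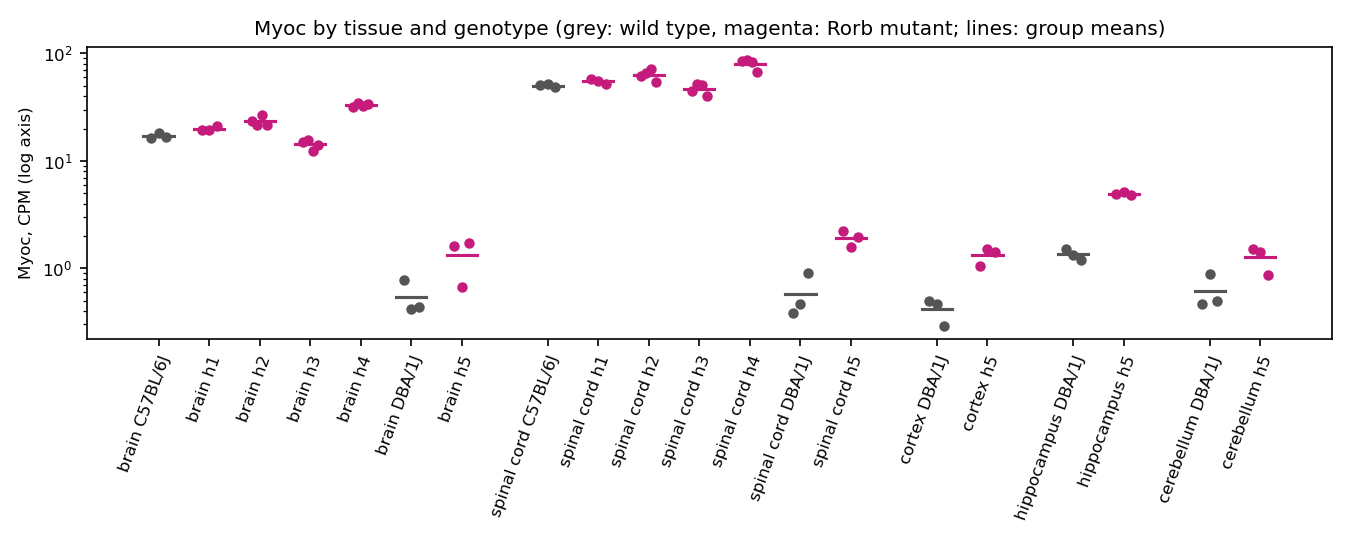
Myoc in CPM on a log axis in every library, by tissue and genotype. The 4 h4 brains (31.5 to 34.2 CPM) lie above all other brains, and DBA/1J and h5 libraries lie below all C57BL/6J-type libraries.

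Igfbp2, which encodes a protein that binds IGF1 and IGF2, was lower in spinal cord in 3 lines. C57BL/6J spinal cords held 12.6, 12.1 and 11 CPM. In h2 it was 7.80, 6.46, 8.41 and 8.76 (log2 difference -0.59, SE 0.0956, edgeR adjusted p = 0.00321). In h3 it was 8.67, 9.05, 8.42 and 7.54 (-0.49, SE 0.0850, edgeR adjusted p = 0.0151), and in h4 7.37, 5.81, 6.67 and 9.77 (-0.68, SE 0.132, edgeR adjusted p = 0.0176). None of these cords reached the controls, with which all 3 comparisons are made; all mutant cords lay below all controls for 6.78% of genes in h2, 6.19% in h3 and 5.64% in h4. In h1 spinal cord, at 8.65, 9.90 and 11.3 CPM, the groups overlapped and no member was called.

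These calls depended on the fit. In one fit of all spinal cords the adjusted p of Igfbp2 was 0.300 in h2, 0.334 in h3 and 0.196 in h4. The h3 and h4 calls were also lost without C57BL/6J replicate 1 or replicate 2 and, in h3, with sex as a covariate (adjusted p = 0.0806). In brain the groups overlapped: h4 held 23.5, 20.5, 22.4 and 22.3 CPM against 21.6, 25.3 and 21.4, a log2 difference of -0.03. The difference between the tissues in the h4 effect was -0.66 (edgeR adjusted p = 0.138), and no member was called in any of the tested differences between tissues, in which at most 0.0108% of genes were called. Other genes of the IGF system in these cords went in both directions: Igfbp4 was called at -0.32 in h2, -0.69 in h3 and 0.36 in h4, and Igfbp5 at 0.24 in h2. Background calls in spinal cord were 2.09% of genes in h2, 1.01% in h3 and 1.75% in h4.

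Of the matrix, hyaluronan and transporter families, few genes besides the members were called in these cords. The proteoglycan gene Prelp was called at 0.24 in h2 and 0.36 in h4, Itih3 at 0.36 and Slc22a8 at 0.38 in h2, and Tnfaip6 at -0.47 in h3. Of the other meningeal genes, Col1a2 was called at 0.28 in h2 and 0.52 in h4, and Fbln1 at 0.53 in h4. Dcn, Ogn, Lum, Slc6a20a, Slc22a6 and Igf2 were called by the main edgeR fit in no comparison of a mutant with its wild type. Slc22a6 did not pass the count filter in spinal cord and was not tested there. Outside h2 brain, 1 of 13 alternatives each called Ogn in h3 and in h5 spinal cord, Igf2 in h5 cerebellum and Slc6a20a in h4 brain.

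Several comparisons gave no call by edgeR for any member. Among them were h1 brain (1 member at an unadjusted p under 0.05, 0 calls by DESeq2, 0% of genes called), h1 spinal cord (2 members, 0 by DESeq2, which gave 8 members no adjusted p, 0.289%) and h3 brain (2 members, 0 by DESeq2, 0.164%). So were h5 brain (3 members, 0 by DESeq2, which gave 1 member no adjusted p, 0%), h5 cortex (3 members, 1 by DESeq2, Myoc, 0%) and h5 cerebellum (5 members, 0 by DESeq2, 0.0120%). Over all genes an unadjusted p under 0.05 was given to 745 of 17603 in h1 brain, 1951 of 17309 in h1 spinal cord, 1833 of 17688 in h3 brain, 1003 of 17299 in h5 brain, 1106 of 17220 in h5 cortex and 937 of 16669 in h5 cerebellum. DESeq2 called 21, 136, 195, 64, 60 and 48 genes in the same comparisons. In h5 brain, Lum was 3.56, 2.71 and 4.25 CPM against 2.43, 1.78 and 2.47 (log2 difference 0.66, edgeR adjusted p = 0.656), and Itih2 8.67, 11 and 9.17 against 7.54, 5.44 and 8.28 (0.44, edgeR adjusted p = 0.744), both without overlap, as for 5.32% of genes. In h5 cerebellum the same genes lay the other way, Lum at 3.82, 4.58 and 4.05 against 5.75, 5.68 and 5.85, and Itih2 at 6.73, 5.62 and 6.60 against 8.46, 8.62 and 8.55. Igf2 and Igfbp2 in h5 cerebellum were also below every wild type, as were 5.07% of genes (log2 differences -0.52 and -1.06), and the choroid plexus genes there summed to 17.6 to 1044 CPM against 1376 to 1889, with 12 of 12 below 0. Slc22a6 there was above every wild type, 3.75, 4.08 and 5.54 CPM against 3.55, 3.37 and 3.74, as for 5.83% of genes (0.32, edgeR adjusted p = 0.909).

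Some further differences had no overlap and no call. In h3 spinal cord Ogn was 0.884, 1.03, 1.12 and 1.01 CPM against 3.33, 1.24 and 1.41 in C57BL/6J (log2 difference -0.99, edgeR adjusted p = 0.165). The difference was between -1.23 and -0.39 over 13 alternatives, the smallest without C57BL/6J replicate 1, and the fit without a count filter alone called it (adjusted p = 0.0350). Slc6a20a in the same cords was 3.27, 3.86, 3.49 and 3.41 CPM against 4.26, 4.57 and 3.99 (-0.29, edgeR adjusted p = 0.288); with Igfbp2 these were 3 members below every control there, as were 6.19% of genes. In h5 hippocampus 2 members were below every wild type, as were 4.77% of genes, whereas Myoc alone was above (4.71% of genes). There Ogn was 8.07, 9.45 and 8.05 CPM against 9.53, 10.7 and 12.6 (-0.36, edgeR adjusted p = 0.997), and Slc6a20a 13.9, 16.7 and 15.7 against 18.1, 17.1 and 18.1 (-0.20, edgeR adjusted p = 0.997).

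Between the wild-type strains, edgeR called a lower Slc22a6 in DBA/1J brain, 3.00, 3.19 and 4.10 CPM against 5.25, 6.06 and 5.58 (log2 difference -0.71, edgeR adjusted p = 0.0138), and h5 brains held 3.08, 3.06 and 2.86. The call was lost without C57BL/6J replicate 2 or DBA/1J replicate 2. Dcn, 29.1, 22.3 and 23 CPM in DBA/1J brain against 18.4, 18.9 and 21.2, did not overlap (13.2% of genes in that direction; log2 difference 0.35, edgeR adjusted p = 0.0695); DESeq2 called it (adjusted p = 0.0228), as did 3 of 12 alternatives in all. Slc6a20a was 16.8, 14.6 and 18.2 CPM in DBA/1J brain against 18.4, 20.1 and 19.5, below every C57BL/6J brain as for 15.7% of genes (-0.22, edgeR adjusted p = 0.187). In spinal cord Igf2 was 16.2, 13.7 and 27.7 CPM in DBA/1J and 14.3, 12.6 and 10.6 in C57BL/6J (0.62, edgeR adjusted p = 0.0467). The call was lost with DESeq2 and without any 1 of C57BL/6J replicates 1, 2 and 3 or DBA/1J replicate 3, the difference being 0.26 without the last, and the adjusted p over alternatives reached 0.402. Apart from Myoc, Slc22a6 in brain and Igf2 in spinal cord were the members edgeR called between strains. In these comparisons strain, age and animal series cannot be told apart.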

How the data were processed

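RNA was poly-A selected (KAPA mRNA HyperPrep) and sequenced as paired 150-base reads. Per the submitters' processing notes and the study's methods, the authors checked and trimmed reads (FastQC, Trim Galore), aligned them with STAR to GRCm38 and quantified genes with RSEM. The authors deposited 1 file per library with RSEM expected counts and TPM per gene; the annotation release and the strand setting are not given in the sources used here. Of all deposited expected counts 5.07% were not whole numbers, and they were rounded first. The deposited TPM values were used only to compare levels between genes.

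Counts of 20 groups were tested with edgeR 4.0.16 (R 4.3.3; TMM, filterByExpr, quasi-likelihood test), each mutant against its own wild type and tissue, with p-values adjusted by Benjamini-Hochberg over all genes of the fit and called at 0.05. Tissues were compared with genotype as a covariate; since tissues of a pair came from the same animals (correlations of their deviations 0.012 to 0.202 between brain and spinal cord and -0.059 to 0.232 between regions), the animal as a block was an alternative. CPM are on TMM-scaled library sizes; log2 CPM for correlations used a prior count of 2. The nominal depth was 32889755 to 59120536 reads per library, and n = 3 or 4 per group limits precision; Slc22a6 in spinal cord rests on few reads. The smallest exact permutation p is 0.1 for 3 against 3 and 0.0286 for 4 against 3 samples. Alternatives were DESeq2 1.42.0, its size factors, no filter, sex, a block for the replicate number, for h5 a block for the animal identifier series, one fit per tissue and leaving out each replicate. Leaving out spinal cord h5 replicate 3 was chosen after seeing the data. The fits were tested on simulated data.

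Of the 10 members, those called or without overlap between groups are described in each comparison and the others in part; of related families, genes called are named, and likeness names the 10 genes closest to the members' mean and up to 3 per member; a few genes are not reported here. The members and the gene lists were chosen with earlier results of these data known. Samples with the same replicate number deviated together in every pair only in h1 brain (correlations 0.115, 0.116 and 0.234), where the block changed no member's call and took the genes called over all genes from 0 to 3. Animals within a group are separate, and the identifiers of the h2 to h4 animals belong to other series than those of the controls.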

Additional observations from a re-analysis of the deposited data

Results flagged for a closer look

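Of 58 combinations of a member and a group of 4 libraries, 6 had 1 library far from the other 3. This used Dixon's criterion at the 95% level, where chance alone gives about 1 in 20. The 58 include h2 brain, whose values chose members, and its libraries are listed below as description. The count of 6 is therefore not read against that rate. Slc6a20a was 16.3 CPM in brain h2 replicate 1 and 17.7 to 17.8 in the other h2 brains. Igfbp2 was 21.7 CPM in brain h2 replicate 3 and 24.6 to 25 in the others. Slc22a6 was 0.0769 CPM in spinal cord h3 replicate 1 and 0 in the others. This value rests on 4 reads, and with the others at 0 any count above 0 meets the criterion. Lum was 1.20 CPM in spinal cord h3 replicate 4 and 0.954 to 0.992 in the others. Myoc was 66.9 CPM in spinal cord h4 replicate 4 and 83.4 to 86.4 in the others. Ogn was 0.726 CPM in spinal cord h4 replicate 2 and 1.39 to 1.48 in the others.

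In 6 pairs of comparisons every mutant library lay above all controls in one and below all controls in the other, and the difference between the comparisons was not tested. In brain these were Myoc in h1 (log2 difference 0.23) and h3 (-0.26), Myoc in h2 (0.45) and h3 (-0.26), Myoc in h3 (-0.26) and h4 (0.96), and Slc6a20a in h2 (-0.15) and h4 (0.27), all against the same 3 C57BL/6J brains. Of all genes 0.0302% did the same as Myoc in h1 and h3, and 0.0352% as Myoc in h3 and h4. The pairs with h2 brain, whose values chose members, are given as description. Nothing is read from their share of 0.0151% each. The others were Itih2 in h5 brain (0.44) and h5 cerebellum (-0.44), and Lum in h5 brain (0.66) and h5 cerebellum (-0.48). By their labels, these brains and cerebella came from different animals. There 0.247% of genes did the same.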

How the results depend on the processing

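The number of members called by an adjusted p under 0.05 was recomputed under each alternative, except in h2 brain, whose values chose members. With DESeq2 it was 5 of 10 between spinal cord and brain, the other 5 having no adjusted p, 2 in h4 brain, 1 in h5 spinal cord, 1 in h5 cortex and 1 between strains in spinal cord. With sex as a covariate it was 0 in h3 spinal cord. Without a count filter it was 2 in h3 spinal cord and 2 in h5 cerebellum. With the replicate number as a block it was 0 in h5 hippocampus, 1 in h5 cerebellum and 1 between strains in spinal cord; the replicate numbers were not shown to pair these samples. With all groups of a tissue fitted at once it was 0 in h2, 0 in h3, 1 in h4 and 2 in h5 spinal cord, 1 in h5 brain and 1 between strains in spinal cord. With the animal series as a block the number of members called in each h5 comparison was the same, while over all genes edgeR called 20 in h5 cortex (0 without the block), 7 in h5 hippocampus (2 without), 0 in h5 cerebellum (2 without) and 0 in h5 spinal cord (1 without). With the animal as a block in the tissue comparisons Igf2 lost its call between hippocampus and cerebellum (5 members called in place of 6), and no other member's call changed. In DBA/1J animals alone hippocampus against cerebellum had 3 calls. The cause was not tested in any of these.

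Leaving out 1 library at a time gave 1 to 2 calls in h2, 0 to 1 in h3 and 1 to 2 in h4 spinal cord, 0 to 1 in h5 cortex, 0 to 1 in h5 hippocampus, 1 to 2 between strains in brain and 1 to 2 between strains in spinal cord. The Igfbp2 calls in h3 and h4 spinal cord went without C57BL/6J replicate 1 or 2. The median r between members in spinal cord was 0.309 without h5 replicate 3. Another 211 recomputed counts stayed within 1.5 times the count reported, over members with an adjusted p. Groups of 3 or 4 limit the allele comparisons, and Slc22a6 in spinal cord rests on a few reads.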
